A study of Mus musculus with 18 samples.

Results

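The last interval of a primary culture of mouse kidney proximal tubule cells was examined by setting the 3 libraries of day 14 (replicates A, B and C) against the 3 libraries of day 7 (replicates A, B and C). These are 6 of the 18 polyA RNA-seq libraries of the series, which sampled days 0, 1, 2, 4, 7 and 14 with 3 libraries a day. The 6 libraries were chosen by the day in their labels and by no measured value. Day 7 C, in contrast, was left out of a second fit below because it lay apart in these data. Cells of both days were labelled wild type and untreated, and came from female C57BL/6J mice aged 6 weeks. Their tubules had been freed with collagenase, enriched on a Percoll gradient, seeded on plastic and kept without subculture, so that the 2 groups differ by label in time in culture alone. After the first 3 days the medium was renewed on alternate days or as the cultures required, and the time since the last change is not given for either day. The labels number the replicates as biological without naming separate mice or dishes. The p-values below rest on the spread between libraries of the same day, pooled over all 6 days, which may be technical.

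Cells of the proximal tubule, the nephron segment that reabsorbs most of the filtrate, spread, divide and lose transport functions when they are placed on plastic. Cholesterol is made from acetyl-CoA in a chain of enzymes, among them Hmgcs1, Idi1 and Cyp51. Their genes are driven by SREBP2, a transcription factor that stays in the membrane of the endoplasmic reticulum, held by Scap and Insig1, while sterols are plentiful. Oxysterols in turn activate LXR receptors, which raise the cholesterol exporter Abca1. Mki67 is transcribed in cycling cells, and Lcn2 encodes a secreted iron carrier that is used as a marker of tubule injury.

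Depth was similar in all 6 libraries, and 1 library of day 7 stood apart. Estimated counts totalled 25302497 to 28082080 on day 14 and 23799559 to 32001426 on day 7, and transcripts of the mitochondrial genome took 0.895 to 1.01% and 0.711 to 0.939% of them. The level of a gene is its CPM, the estimated counts of a library scaled to the same total. Between libraries, distance was the mean absolute log2 CPM difference over all tested genes. It was 0.254 to 0.293 among the day 14 libraries and 0.253 between day 7 A and B, but 0.656 and 0.672 from day 7 C to A and B. Day 7 C lay closer to the day 4 libraries, at 0.479 to 0.512, than A and B did, at 0.711 to 0.743. The day 14 libraries lay 0.413 to 0.431 from day 7 A and B and 0.689 to 0.711 from day 7 C. Counts and fold changes are therefore given with all 3 day 7 libraries and again with day 7 A and B alone. As day 7 C was left out for its distance, the smaller spread of that second fit follows in part from the choice. Where a gene of these 2 days has 1 fold change or p only and no libraries are named, it is that with all libraries, and the gene was called in the same direction, or not called, with day 7 A and B as well.

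**Figure D1:**
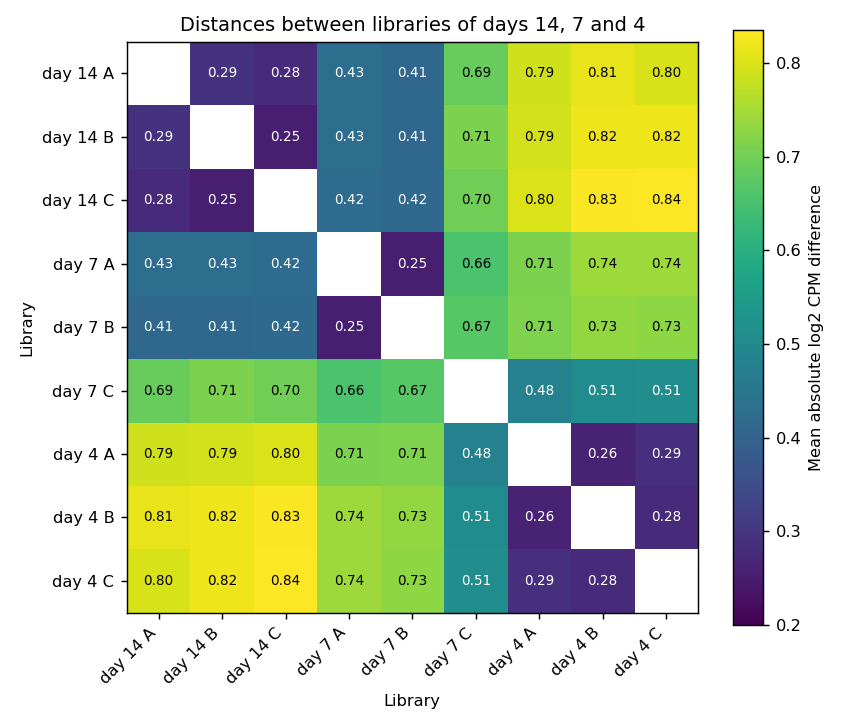
Distances between the libraries of days 14, 7 and 4, as the mean absolute log2 CPM difference over the tested genes (colour and number in each cell; 1 row and 1 column per library). Day 7 A and B form a block with the day 14 libraries (0.413 to 0.431), whereas day 7 C is nearer to day 4 (0.479 to 0.512) than to any library of days 14 and 7.

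The proximal tubule label was met on day 0 and little on either of these days. Slc34a1, the apical sodium-phosphate cotransporter (chromosome 13, 55398187 to 55415592, GRCm38), had 0.870, 0.356 and 0.293 CPM in day 14 A, B and C, against 0.0902, 0.0708 and 0 CPM in day 7 A, B and C, where the day 0 mean was 13800 ± 911 CPM (SD, n = 3). Megalin, an endocytic receptor encoded by Lrp2, had 8.08, 6.98 and 16.3 CPM on day 14 and 5.44, 8.89 and 10.5 CPM on day 7, with overlapping ranges. Pax8, the renal epithelial transcription factor, was at 332, 319 and 298 CPM on day 14, against 327, 354 and 149 CPM on day 7. Cdh1, the epithelial cadherin, had 958, 891 and 996 CPM on day 14 and 991, 967 and 765 CPM on day 7. Hnf4a, a tubule transcription factor, had 1.65, 1.03 and 0.684 CPM on day 14, against 2.28, 1.665 and 11.4 CPM on day 7. Its call (log2 fold change -2.15, edgeR, adjusted p = 0.0393) ended without day 7 C (-0.82, adjusted p = 0.349). Cdh16, a kidney cadherin, had 690, 705 and 712 CPM on day 14 and 990, 1096 and 514 CPM on day 7. It was called lower only with day 7 A and B (-0.57, adjusted p = 0.000518). Both days therefore held epithelial transcripts of kidney type with the segment's defining transporter near 0.

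The step was the smallest of the 5 in the series. By edgeR's quasi-likelihood test, fitted in 1 model over all 18 libraries, 950 of 18754 tested genes were higher on day 14 than on day 7 (5.07%) and 1399 were lower (7.46%) at a Benjamini-Hochberg adjusted p under 0.05. With day 7 A and B alone, 1111 of 19260 genes were higher (5.77%) and 1784 were lower (9.26%). Counts of list members given below are to be read beside these shares. The share of genes called in either direction was 70.2% for day 1 against day 0, 34.5% for day 2 against day 1, 41.4% for day 4 against day 2 and 37.9% for day 7 against day 4, and the median absolute log2 fold change of the last step was 0.24, against 0.39 to 0.98 in the earlier ones. Both fits called 1698 genes, all of them in the same direction. These are 72.3% of the calls with 3 day 7 libraries and 58.7% of the calls with day 7 A and B. Without regard to any test, 15.1% of the genes had all 3 day 14 libraries above all 3 day 7 libraries and 13.4% had them all below. The count of calls rests on few libraries: without day 14 A, B or C it was 588, 477 or 444 higher and 763, 796 or 770 lower. It also rests on the spread being pooled over all 6 days. With the spread estimated from the 6 libraries of days 7 and 14 alone, 127 genes were higher and 92 lower. When day 7 C was also left out, 1936 were higher and 2668 lower. The split of the calls moved with the scaling, since library sizes alone gave 1554 higher and 1105 lower (58.4% higher, against 40.4%). A limma test on log2(TPM + 1), which differs in the test, the filter and the values, gave 1697 higher and 621 lower of 17415 genes (73.2% higher). TPM, the length-scaled values of the authors, shifted the median over all genes by 0.11 (log2).

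All 20 tested genes of cholesterol synthesis were lower on day 14 than on day 7, in both fits. Their median log2 fold change was -1.26 with all libraries and -1.36 with day 7 A and B, against 0 over all tested genes. Their summed level was 1480, 1500 and 1440 CPM in the day 14 libraries, against 4290, 3820 and 3040 CPM in those of day 7. In all 20, the 3 libraries of day 14 lay below the 3 of day 7. The enzymes run from the first condensation of acetyl-CoA to the last reduction of the sterol side chain.

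Idi1 (ENSMUSG00000058258, chromosome 13, 8885501 to 8892451, plus strand), which interconverts the isoprenoid building blocks, had 68.9, 73.0 and 67.8 CPM in day 14 A, B and C, against 307, 278 and 258 CPM in day 7 A, B and C. The days did not overlap, and the log2 fold change was -2.01 ± 0.14 (SE; edgeR, adjusted p = 1.64e-06). With day 7 A and B alone it was -2.07 (adjusted p = 6.02e-07). Hmgcs1, the first committed enzyme of the pathway, had 190, 189 and 183 CPM on day 14 and 711, 590 and 374 CPM on day 7. Its log2 fold change was -1.57 ± 0.20 (adjusted p = 0.000207), or -1.80 with day 7 A and B, and day 7 C was the lowest of the 3 day 7 libraries. Sqle, squalene epoxidase, had 147, 158 and 141 CPM on day 14, against 331, 314 and 230 CPM on day 7, with a log2 fold change of -0.97, or -1.12. Lss, lanosterol synthase, fell with a log2 fold change of -1.51 (adjusted p = 1.64e-06; -1.62 with day 7 A and B), Cyp51, the lanosterol demethylase, with -1.65 (-1.78) and Acat2, which condenses acetyl-CoA, with -1.78 (-1.84). Ebp, a sterol isomerase, changed least of the 20, with 27.2, 30.2 and 28.1 CPM on day 14 and 40.6, 38.3 and 41.6 CPM on day 7 (log2 fold change -0.50 ± 0.08, adjusted p = 0.00154; -0.47 with day 7 A and B).

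**Figure D2:**
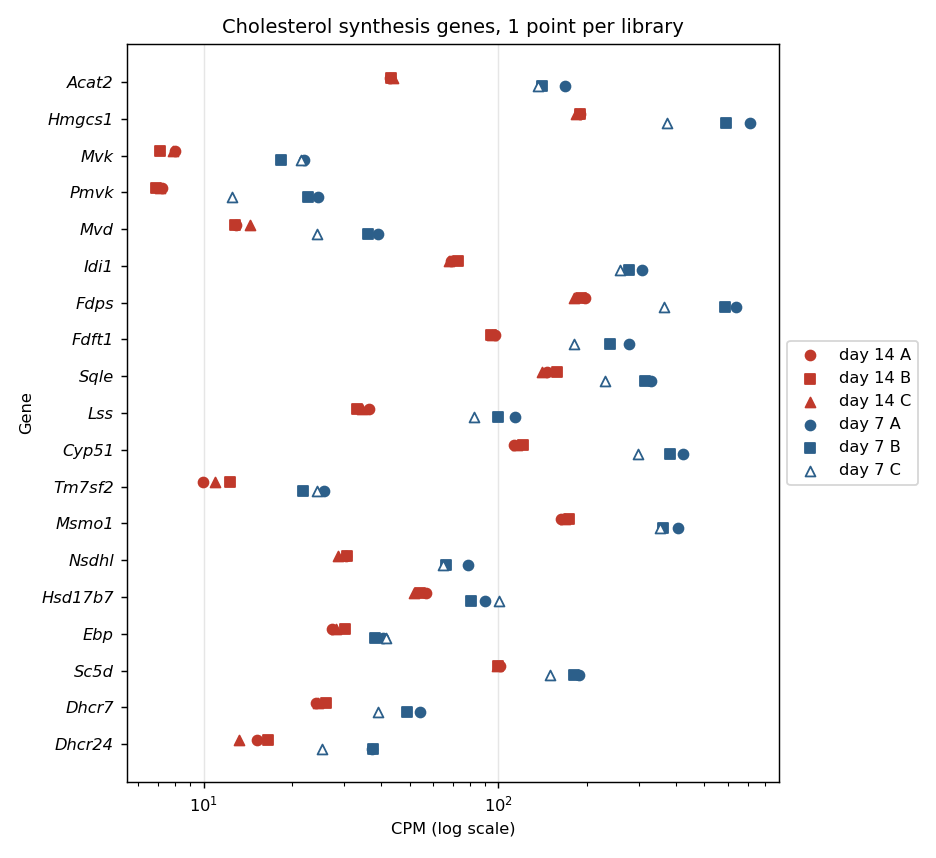
Levels of 19 cholesterol synthesis genes in each library (CPM, log axis; genes in pathway order from top to bottom; red, day 14; blue, day 7; the open triangle is day 7 C). Every day 14 point lies left of every day 7 point of the same gene.

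The regulators and the export genes of the same circuit were split. Insig1 (chromosome 5, 28071363 to 28078662), which retains the SREBP complex and is itself an SREBP target, had 27.6, 24.2 and 24.3 CPM on day 14, against 141.5, 111 and 93.6 CPM on day 7 (log2 fold change -2.19 ± 0.15, adjusted p = 1.64e-06; -2.32 with day 7 A and B). Srebf2, the gene of SREBP2, fell by 0.76 on the log2 scale (adjusted p = 0.000867), Stard4, a sterol carrier, by 1.93 and Soat1, which esterifies cholesterol, by 1.60. With day 7 A and B their log2 fold changes were -0.89, -2.05 and -0.96. Scap, the escort of SREBP, had 88.2, 92 and 87.5 CPM on day 14 and 81.7, 86.3 and 89.8 CPM on day 7 (adjusted p = 0.697). Abca1, the cholesterol exporter (chromosome 4, 53030787 to 53159895), went the other way, with 84.2, 75.9 and 104 CPM on day 14, against 29.3, 28.0 and 16.1 CPM on day 7 (log2 fold change 1.84 ± 0.26, adjusted p = 0.000523; 1.61 with day 7 A and B). Abcg1, its partner in efflux, had 10.2, 15.1 and 14.6 CPM on day 14 and 6.22, 7.83 and 8.22 CPM on day 7 (log2 fold change 0.84, adjusted p = 0.00951; 0.92 with day 7 A and B). Of the 16 tested genes of sterol sensing and uptake, 2 were higher and 7 lower, and 2 higher and 8 lower with day 7 A and B.

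Fatty acid synthesis, which SREBP1 drives, fell in part. Of its 16 tested genes, 9 were lower and none higher, with a median log2 fold change of -0.69, and 11 were lower with day 7 A and B. Scd1, which desaturates stearate, had 38.1, 39.7 and 41.9 CPM on day 14, against 247, 205 and 93.2 CPM on day 7 (log2 fold change -2.19, adjusted p = 0.000958; -2.50 with day 7 A and B). Scd2, a second desaturase, had 709, 697 and 718 CPM on day 14 and 2268, 1906 and 982 CPM on day 7 (log2 fold change -1.28, adjusted p = 0.00731; -1.56 with day 7 A and B). In both genes, day 7 C was the library nearest to day 14. Elovl6, an elongase, fell by 1.15 on the log2 scale, and Acly, which makes cytosolic acetyl-CoA, by 0.86. Fasn, the fatty acid synthase, had 215, 215 and 258 CPM on day 14, against 318, 312 and 247 CPM on day 7. It was not called with all libraries (log2 fold change -0.35, adjusted p = 0.0954) and was with day 7 A and B (-0.46, adjusted p = 0.0232). On TPM the count of lower genes was 5 of 16. It was 2 with the spread estimated from the 6 libraries alone, or 12 when day 7 C was also left out.

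The promoters of these genes are shown because their members moved together. Windows of 300 bases, from 250 bases before to 50 after the gene start, were taken from RefSeq (GRCm38.p6), which held 15 of the 20 cholesterol synthesis genes. Some genes have more than 1 window, and a gene was counted if any of its windows held a match. The CCAAT box, searched as CCAAT on both strands, was found in 14 of the 15 genes (93.3%), against 41.1% of all 27025 genes with a window. The sterol regulatory element, searched as TCACNCCAC on both strands, was found in 1 of the 15 genes (6.67%), Hmgcs1, against 1.44% of all genes. The other 2 lists of lipid genes held it in 0 of 11 genes for sterol sensing and uptake and in 1 of 14 for fatty acid synthesis. Below are the windows of Hmgcs1 (chr13:119690101-119690400, plus strand), with 1 sterol regulatory element and 4 CCAAT boxes, and of Idi1 (chr13:8885356-8885655, plus strand), with 2 CCAAT boxes. Capitals mark the matches, and a CCAAT box on the minus strand reads ATTGG. No match shown overlaps another, and a match is a run of letters and not a shown binding site.
Hmgcs1: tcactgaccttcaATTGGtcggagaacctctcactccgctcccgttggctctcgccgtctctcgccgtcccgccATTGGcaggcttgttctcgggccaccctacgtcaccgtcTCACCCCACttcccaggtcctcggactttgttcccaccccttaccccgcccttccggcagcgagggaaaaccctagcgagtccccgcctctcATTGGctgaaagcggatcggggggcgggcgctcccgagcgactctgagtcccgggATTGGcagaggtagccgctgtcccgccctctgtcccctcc
Idi1: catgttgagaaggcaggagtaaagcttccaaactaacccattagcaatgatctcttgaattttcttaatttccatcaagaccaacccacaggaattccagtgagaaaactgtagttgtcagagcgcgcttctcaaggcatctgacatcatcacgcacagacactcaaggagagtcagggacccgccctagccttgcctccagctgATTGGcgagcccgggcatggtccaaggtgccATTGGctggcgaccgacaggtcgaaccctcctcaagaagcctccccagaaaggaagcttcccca

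Over the whole culture the sterol genes came down from a peak on day 4. Idi1 averaged 135 ± 27.6 CPM on day 2, 663 ± 49.7 CPM on day 4, 281 ± 24.6 CPM on day 7 and 69.9 ± 2.73 CPM on day 14 (SD, n = 3 each), and its day 0 mean was 90.9 ± 12.4 CPM. All 20 cholesterol synthesis genes were called higher on day 4 than on day 2, with a median log2 fold change of 2.02. On day 7 against day 4, 16 of the 20 were lower, with a median of -0.50, or 14 with a median of -0.47 when day 7 C was left out.

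**Figure D3:**
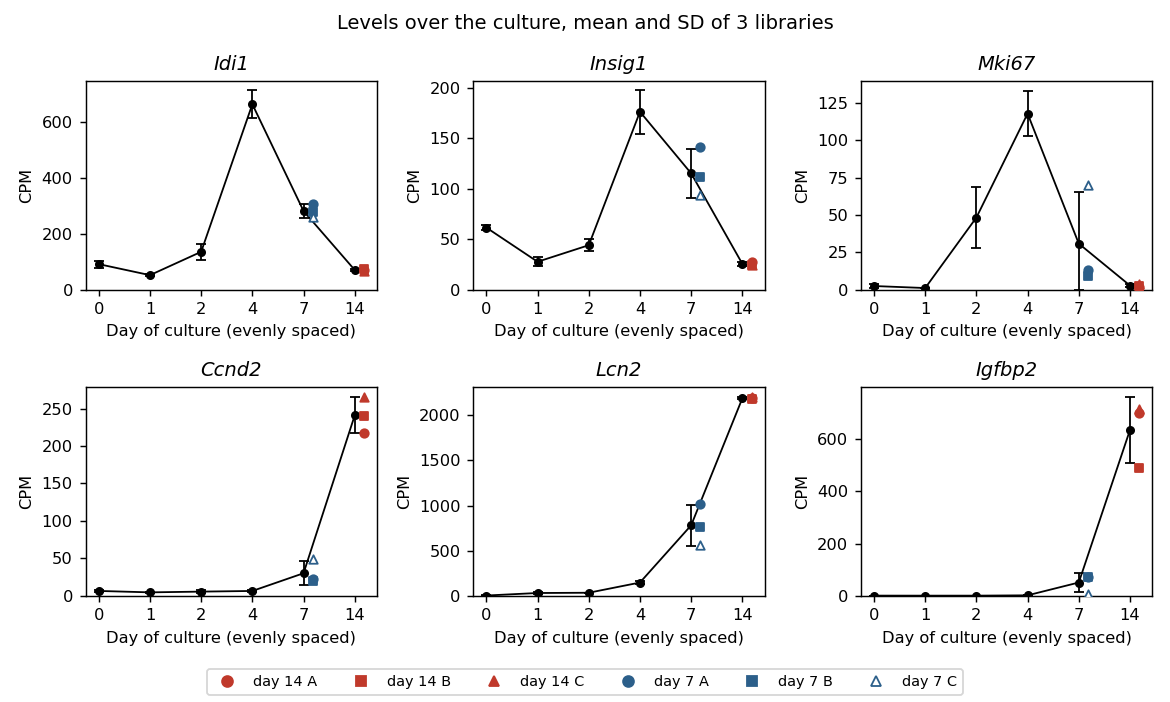
Levels of 6 genes over the culture (CPM; black points and bars, mean and SD of 3 libraries; coloured points, the single libraries of days 14 and 7). Idi1, Insig1 and Mki67 peak on day 4 and are near their day 0 levels or below them on day 14, while Ccnd2, Lcn2 and Igfbp2 have their highest mean on day 14.

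Genes of cell division fell as well. Of the 30 tested genes of mitosis and cytokinesis, 29 were lower on day 14 in both fits and none was higher. The median log2 fold change was -3.17 with all libraries and -1.82 with day 7 A and B. Their summed level was 250, 282 and 280 CPM on day 14, against 644, 593 and 2730 CPM on day 7, so that day 7 C carried far more mitotic transcripts than A and B. In bulk RNA, fewer dividing cells and less of these transcripts per cell cannot be told apart. The member not called was Bub3, a checkpoint protein, with 109, 116 and 113 CPM on day 14 and 117, 111 and 174 CPM on day 7 (adjusted p = 0.207). None of the 30 was called when the spread was estimated from the 6 libraries alone, whereas 29 were called when day 7 C was also left out.

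Mki67 (ENSMUSG00000031004, chromosome 7, 135689784 to 135716361, minus strand), the proliferation marker, had 2.02, 2.46 and 3.58 CPM on day 14, against 12.9, 9.14 and 70.3 CPM on day 7. The day 14 libraries were the 3 lowest, and the log2 fold change was -3.51 ± 0.64 (edgeR, adjusted p = 0.00292), or -2.04 ± 0.37 with day 7 A and B (adjusted p = 0.00135). Top2a, which untangles replicated DNA, had 5.25, 7.34 and 8.93 CPM on day 14 and 28.3, 27.9 and 150 CPM on day 7 (log2 fold change -3.26, or -1.97 with day 7 A and B). Ccnb1, the mitotic cyclin, had 5.16, 7.02 and 5.6 CPM on day 14 and 27.5, 25.0 and 141 CPM on day 7 (-3.44, or -2.15). Birc5, a passenger protein of the centromere, had 2.14, 2.85 and 2.51 CPM on day 14 and 13.0, 10.9 and 84.2 CPM on day 7 (-3.85, or -2.27). In each of these genes day 7 C was at least 5 times the other day 7 libraries, and A and B alone still lay above day 14. DNA replication genes were lower in 25 of 29 with all libraries (median log2 fold change -1.67) and in 20 of 29 with day 7 A and B (median -0.71). The count of 25 was 17 or 14 without day 14 B or C. It was 1 with the spread estimated from the 6 libraries alone, or 23 when day 7 C was also left out, and 13 on log2(TPM + 1). Rrm2, the ribonucleotide reductase subunit made for S phase, had 31.4, 36.6 and 33.6 CPM on day 14, against 151, 133 and 337 CPM on day 7 (log2 fold change -2.61, or -2.07). Pcna, the replication clamp, changed less, with 44.4, 48.8 and 47.3 CPM on day 14 and 61.8, 60.3 and 133 CPM on day 7 (-0.86, adjusted p = 0.0149; -0.39 with day 7 A and B, adjusted p = 0.00152).

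The window of Mki67 is shown for the same reason as those above (chr7:135716330-135716629, minus strand, GRCm38.p6). It holds 3 CCAAT boxes and 2 matches to TTTGAA, the core letters of the cell cycle homology region, both in capitals. Of the 25 mitosis genes with a window, 21 held CCAAT (84%) and 19 held TTTGAA on either strand (76%, against 20.2% of all genes). Of 22 DNA replication genes, 9 held TTTNGCGC, the letters of an E2F site, on either strand (40.9%, against 1.57% of all genes).
Mki67: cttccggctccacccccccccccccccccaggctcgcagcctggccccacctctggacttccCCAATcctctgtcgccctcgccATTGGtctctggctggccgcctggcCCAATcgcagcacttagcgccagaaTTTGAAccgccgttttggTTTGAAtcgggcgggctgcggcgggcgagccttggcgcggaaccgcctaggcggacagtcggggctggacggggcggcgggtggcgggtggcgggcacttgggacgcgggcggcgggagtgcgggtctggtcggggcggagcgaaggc

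The D cyclins and the CDK inhibitors did not move as 1 group. Ccnd2, a cyclin of G1 (ENSMUSG00000000184, chromosome 6, 127125162 to 127152193), had 218, 240 and 265.5 CPM on day 14, against 21.9, 19.8 and 48.4 CPM on day 7. It rose with a log2 fold change of 3.01 ± 0.29 (edgeR, adjusted p = 3.1e-05), or 3.53 with day 7 A and B, and was under 7 CPM on average on each of days 0 to 4. Ccnd1, another D cyclin, had 340, 316 and 371 CPM on day 14 and 373, 341 and 405 CPM on day 7 (adjusted p = 0.674). Cdkn1a, the inhibitor p21, had 433, 450 and 460 CPM on day 14 and 384, 398 and 264 CPM on day 7 (adjusted p = 0.3). Cdkn1c, the inhibitor p57, was higher, with 90.9, 77.8 and 65.5 CPM on day 14 and 42.7, 43.0 and 35.8 CPM on day 7 (log2 fold change 0.95, adjusted p = 0.00641), and Cdkn2c and Cdkn2d were lower (-1.49 and -0.93). Of 20 tested p53 targets, 1 was higher and 1 lower in each fit. That is near the 12.5% and 15% of all tested genes called in the 2 fits.

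Genes of the integrated stress response, in which the factor Atf4 raises amino acid synthesis and import, rose in part. Of 29 tested genes of this and the unfolded protein response, 15 were higher and none lower (median log2 fold change 0.49), and 16 were higher with day 7 A and B. With the spread estimated from the 6 libraries alone, 1 was higher, or 24 higher and 1 lower when day 7 C was also left out. Their summed level was 6810, 7460 and 7410 CPM on day 14, against 5140, 5390 and 5780 CPM on day 7. Trib3, a target of Atf4 that feeds back on it, had 184, 226 and 192 CPM on day 14 and 57.3, 86.6 and 18.6 CPM on day 7 (log2 fold change 1.89 ± 0.35, adjusted p = 0.00308; 1.48 with day 7 A and B). Wars, the tryptophanyl-tRNA synthetase, had 245, 271 and 256 CPM on day 14 and 138, 148 and 133.5 CPM on day 7, with the days well apart (log2 fold change 0.88 ± 0.07, adjusted p = 5.67e-06; 0.84 with day 7 A and B). Asns, asparagine synthetase, had 430, 485 and 452 CPM on day 14 and 256, 310 and 117 CPM on day 7 (log2 fold change 1.00, adjusted p = 0.0116; 0.69 with day 7 A and B). Mthfd2, of mitochondrial folate metabolism, rose by 1.21 on the log2 scale, Cth, of cysteine synthesis, by 1.49 and Aldh18a1, of proline synthesis, by 1.02, or by 0.87, 1.08 and 0.78 with day 7 A and B. Atf4 had 235.5, 284 and 250 CPM on day 14 and 175, 217 and 97.0 CPM on day 7 (0.66, adjusted p = 0.0328), and Ddit3, the factor CHOP, had 63.6, 67.1 and 60.9 CPM on day 14 and 31.8, 42.1 and 7.65 CPM on day 7 (1.23, adjusted p = 0.0379). In all of these but Wars, day 7 C was clearly the lowest library.

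Of the chaperones of the endoplasmic reticulum, which mark the unfolded protein branch, Hyou1 rose by 0.47 on the log2 scale (adjusted p = 0.00674), while Hspa5, Hsp90b1, Calr and Pdia4 were not called with all libraries. Hspa5, the chaperone BiP, had 973, 1095 and 1165 CPM on day 14 and 666, 621.5 and 1060 CPM on day 7 (adjusted p = 0.131), and was called with day 7 A and B alone (log2 fold change 0.74, adjusted p = 0.0053). Hsp90b1 had 605, 646 and 707 CPM on day 14 and 576, 540 and 919 CPM on day 7 (adjusted p = 0.879). The count of 15 was 9, 6 or 7 without day 14 A, B or C, and the count of 16 was 7 without day 7 A as well and 10 without day 14 B. Among amino acid transporters, Slc7a3, a carrier of arginine and lysine, had 130, 163 and 142 CPM on day 14 and 28.3, 38.8 and 5.4 CPM on day 7 (log2 fold change 2.58, adjusted p = 0.00512). Slc7a11, which imports cystine, had 72.7, 100.5 and 88.0 CPM on day 14, against 14.3, 18.7 and 41.2 CPM on day 7 (1.82, adjusted p = 0.00289; 2.40 with day 7 A and B). Nqo1, a quinone reductase under the oxidative stress factor NRF2, had 93.7, 153 and 125 CPM on day 14 and 45.6, 57.9 and 47.8 CPM on day 7 (1.3, adjusted p = 0.000172). The NRF2 targets as a list did not go 1 way, with 3 higher and 3 lower of 27 tested, or 6 higher and 2 lower with day 7 A and B. Over all tested genes, 12.5% and 15% were called in the 2 fits.

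The calls in glycolysis and in the hypoxia response depended on day 7 C. With all libraries, 8 of 20 glycolysis genes and 3 of 18 hypoxia genes were lower on day 14 and none higher. With day 7 A and B alone, 17 of 20 and 16 of 18 were lower, with median log2 fold changes of -1.03 and -0.99. With the spread estimated from the 6 libraries alone, none of either list was called, or 19 and 18 lower when day 7 C was also left out. The glycolysis genes summed to 13300, 13100 and 13800 CPM on day 14, against 29500, 26100 and 11700 CPM on day 7, and the hypoxia genes to 3580, 2940 and 2980 CPM, against 6020, 5720 and 1350 CPM. Day 7 C thus had the lowest sum of hypoxia genes of all 6 libraries and A and B the highest. Leaving out another library instead moved the glycolysis count to 4 (day 7 A or day 14 B) or 5 (day 7 B, day 14 A or day 14 C), and the hypoxia count to 1 (day 14 A) or 0 (any of the other 4). Ldha, which makes lactate, had 1026, 955 and 1065 CPM on day 14, against 3057, 2713 and 1144 CPM on day 7 (log2 fold change -1.18, adjusted p = 0.00709; -1.51 with day 7 A and B). Gapdh, often taken as a reference gene, had 1821, 1936 and 1935 CPM on day 14 and 4677, 3904 and 2098 CPM on day 7 (-0.91, adjusted p = 0.00717; -1.18 with day 7 A and B). Vegfa, the endothelial growth factor induced by low oxygen, had 373, 290.0 and 288 CPM on day 14 and 634, 615 and 76.9 CPM on day 7 (adjusted p = 0.557; -0.98 with day 7 A and B, adjusted p = 0.000168). Its day 14 libraries thus lay between the day 7 libraries. Bnip3, a mitophagy receptor, had 207, 150.5 and 170 CPM on day 14 and 614, 521 and 51.4 CPM on day 7, with a log2 fold change of -1.69 with day 7 A and B. Egln1, an oxygen sensor that hypoxia also induces, had 96.2, 78.1 and 90.1 CPM on day 14 and 229, 208 and 82.0 CPM on day 7. It was called lower in both fits (edgeR, -0.97, adjusted p = 0.0183, and -1.31), although day 7 C overlapped the day 14 libraries.

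Genes of tubule injury moved in both directions, where 12.5% and 15% of all tested genes were called in the 2 fits. Of 34 tested, 4 were higher and 10 lower, or 6 higher and 7 lower with day 7 A and B, and the lower count was 5, 5 or 4 without day 14 A, B or C. With the spread estimated from the 6 libraries alone, 1 was higher and none lower. When day 7 C was also left out, 11 were higher and 12 lower. Against day 7 B alone 1 gene was lower, and against day 7 A alone 2 were higher. Lcn2 (ENSMUSG00000026822, chromosome 2, 32384633 to 32388252) had 2194, 2178 and 2203 CPM on day 14, against 1018, 766 and 561 CPM on day 7. The day 14 libraries were nearly equal and all above day 7 (log2 fold change 1.49 ± 0.29, edgeR, adjusted p = 0.00448; 1.29 with day 7 A and B, adjusted p = 0.00371). Its mean was 1.93 ± 1.5 CPM on day 0 and 146 ± 21.5 CPM on day 4 (SD, n = 3 each). Areg, a growth factor ligand of EGFR, had 10.3, 17.2 and 11.7 CPM on day 14 and 2.98, 3.58 and 7.80 CPM on day 7 (1.45, adjusted p = 0.00717), and Anxa1 and Plaur, the urokinase receptor, rose by 0.59 and 0.49. Spp1, osteopontin, fell, with 4987, 6456 and 4989 CPM on day 14, against 12640.0, 8896 and 16260.0 CPM on day 7 (-1.20, adjusted p = 0.00202; -0.98 with day 7 A and B).

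Vim, the intermediate filament of spreading and mesenchymal cells, had 27.1, 13.0 and 22.3 CPM on day 14 and 50.3, 35.1 and 455 CPM on day 7. It was called in both fits, with a log2 fold change of -3.11 (adjusted p = 0.00831) and of -1.04 with day 7 A and B (adjusted p = 0.00798). Havcr1, the injury molecule KIM-1, had 99.4, 156 and 104 CPM on day 14 and 247, 137 and 1257 CPM on day 7. Its call (-2.19, adjusted p = 0.0254) ended without day 7 C (-0.68, adjusted p = 0.214). Krt20, Sox9 and Clu, which also mark injured tubules, were not called in either fit. Among all tested genes, 7.46% were lower, or 9.26% with day 7 A and B. Of 26 genes of NF-kB and chemokines, 8 were lower and none higher, or 9 lower and 1 higher with day 7 A and B. The lower count was 4 without day 14 A and 4 without day 14 C, and of the 9 it was 2 to 4 without day 7 A or B or day 14 A or C. With the spread estimated from the 6 libraries alone, 1 of the 26 was lower, or 11 when day 7 C was also left out. Nfkbia, the feedback inhibitor of NF-kB, had 25.2, 23.2 and 21.1 CPM on day 14 and 34.9, 37.8 and 50.9 CPM on day 7 (-0.83, adjusted p = 0.00124). Icam1, an adhesion molecule for leukocytes, had 6.65, 4.38 and 5.87 CPM on day 14 and 14.8, 12.3 and 12.2 CPM on day 7 (-1.21, adjusted p = 0.000945).

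Of 38 matrix genes tested, 8 were higher and 1 lower (median log2 fold change 0.19), or 16 higher and 3 lower with day 7 A and B (median 0.47). Among all tested genes, 5.07% were higher and 7.46% lower, or 5.77% and 9.26% with day 7 A and B. With the spread estimated from the 6 libraries alone, 1 matrix gene was higher, or 23 when day 7 C was also left out. The higher count of 8 was 4 without day 14 A and 3 without day 14 C, and that of 16 was 6, 5, 8 and 8 without day 7 A, day 7 B, day 14 A and day 14 C. The lower count of 1 was 4 without day 7 A and 6 without day 7 B, beside 7 higher in each, and the lower count of 3 was 0, 1, 0 and 1 without day 7 A, day 14 A, day 14 B and day 14 C. Col5a2, a fibrillar collagen chain, had 47.7, 44.3 and 58.4 CPM on day 14, against 16.2, 13.4 and 31.6 CPM on day 7 (log2 fold change 1.3, adjusted p = 0.00462; 1.75 with day 7 A and B). Hspg2, the basement membrane proteoglycan perlecan, had 100.4, 71.2 and 131 CPM on day 14 and 48.6, 46.8 and 27.7 CPM on day 7 (1.3, adjusted p = 0.00768). Lama5, a laminin chain of tubule basement membrane, had 283, 270.3 and 341.5 CPM on day 14 and 226, 217 and 131 CPM on day 7 (0.64, adjusted p = 0.0247). Fn1, fibronectin, shows the part of day 7 C, with 499, 283 and 562 CPM on day 14 and 162, 119 and 834 CPM on day 7. It was not called with all libraries (0.27, adjusted p = 0.807) and was higher against day 7 A and B (1.67, adjusted p = 0.0015). Cdh2, N-cadherin, had 195, 161 and 230.5 CPM on day 14 and 67.1, 66.4 and 238 CPM on day 7, and likewise was called only against day 7 A and B (1.55). Of 25 mesenchymal and cytoskeletal genes, 5 were lower and none higher with all libraries, and 2 were lower and 6 higher with day 7 A and B. With the spread estimated from the 6 libraries alone, none was called, or 3 lower and 10 higher when day 7 C was also left out. The 5 were 2 without day 14 B or C, and the 6 were 2, 1, 3 and 2 without day 7 A, day 7 B, day 14 A and day 14 C.

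The largest rises depended in part on the day 7 libraries, and those of both fits are given together. They included several secreted proteins. Cxcl14 and Masp1 were among the 10 largest with all libraries only, and Aldh1a1 with day 7 A and B only. Col8a1, a collagen chain, was not called with all libraries (log2 fold change 0.96, edgeR, adjusted p = 0.345). With day 7 A and B it was among the 10 largest (2.86). Igfbp2, a binding protein of insulin-like growth factors (ENSMUSG00000039323, chromosome 1, 72824503 to 72852474), had 701, 489 and 715 CPM on day 14, against 72.4, 71.5 and 7.47 CPM on day 7. All day 14 libraries lay far above day 7 (log2 fold change 3.65 ± 0.55, edgeR, adjusted p = 0.000984; 3.14 ± 0.22 with day 7 A and B), and the gene was under 2 CPM on average on days 0 to 4. Cdsn, an adhesion protein of cornified epithelia, had 19.0, 16.5 and 14.8 CPM on day 14 and 2.40, 1.10 and 1.84 CPM on day 7 (3.23, adjusted p = 5.79e-05). B4galnt2, a glycosyltransferase, rose by 2.90 on the log2 scale, Sema3a, a secreted guidance factor, by 2.69, Cxcl14, a chemokine, by 2.37, and Masp1, a complement protease, by 2.28. Aldh1a1, which makes retinoic acid, had 13.2, 10.9 and 14.7 CPM on day 14 and 2.28, 2.34 and 3.41 CPM on day 7 (2.27). Abcc4, an organic anion exporter of the proximal tubule, also rose, with 667, 733 and 800 CPM on day 14, against 351, 384 and 412 CPM on day 7 (0.94, adjusted p = 9.23e-05).

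The largest falls depended on the day 7 libraries. With all 3, the 10 largest among genes of at least 10 CPM whose libraries did not overlap were Gldc, of glycine breakdown, and 9 genes of the cell cycle, among them Plk1, Ccna2, Kif2c and Mcm10. Gldc had 1.31, 0.748 and 1.01 CPM on day 14 and 2.16, 1.49 and 46.2 CPM on day 7, and its call (log2 fold change -3.99, adjusted p = 0.0213) ended without day 7 C (adjusted p = 0.479). With day 7 A and B, Rhcg, an ammonia transporter of the distal nephron, was among the largest, with 8.42, 6.59 and 7.89 CPM on day 14 and 54.8, 77.6 and 4.09 CPM on day 7 (-3.12, adjusted p = 5.35e-07). Fgfbp1, which carries fibroblast growth factors, had 4.66, 5.95 and 3.52 CPM on day 14 and 44.6, 35.6 and 9.87 CPM on day 7, and fell in both fits (-2.68 and -3.10). Fabp5, a fatty acid carrier, had 3.51, 3.67 and 4.63 CPM on day 14, against 22.8, 19.7 and 45.4 CPM on day 7, and also fell in both (-2.89, adjusted p = 2.92e-05, and -2.44).

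Some markers of the segment were called, in no stable number. Of 39 proximal tubule transporters tested, 4 were higher and 6 lower, or 3 higher and 1 lower with day 7 A and B, where 12.5% and 15% of all tested genes were called in either direction. The 6 were 2, 1 and 3 without day 14 A, B and C, and the 4 were 2 without day 7 A, day 7 B or day 14 B. With the spread estimated from the 6 libraries alone, 1 was higher and 1 lower. When day 7 C was also left out, 6 were higher and 3 lower. Of 28 genes of endocytosis and the brush border, 1 was higher and 5 lower, or none higher and 6 lower, and the 5 were 8 without day 7 B. With the spread estimated from the 6 libraries alone, none was higher and 2 lower. When day 7 C was also left out, 1 was higher and 7 lower. Among markers of other cell types, the endothelial and myeloid sums lay apart by day. The day 14 sums of collecting duct and of loop of Henle and distal tubule markers lay between those of the day 7 libraries. Fibroblast and pericyte sums overlapped. Endothelial markers summed to 27.7, 28.7 and 30.3 CPM on day 14, against 48.0, 44.7 and 89.4 CPM on day 7, and 10 of 16 tested were lower (9 with day 7 A and B). With the spread estimated from the 6 libraries alone, 1 was lower, or 8 lower and 1 higher when day 7 C was also left out. Pecam1, an endothelial adhesion molecule, had 0.435, 0.463 and 0.391 CPM on day 14 and 2.16, 2.48 and 11.6 CPM on day 7 (log2 fold change -3.63, adjusted p = 0.00132), and the endothelial factor Erg was at 0 in all 3 day 14 libraries. Collecting duct markers summed to 455, 347 and 414 CPM on day 14 and 763, 722 and 138 CPM on day 7, with 2 of 16 lower, or 8 with day 7 A and B (5 without day 14 A or C). With the spread estimated from the 6 libraries alone, none was lower, or 8 when day 7 C was also left out. Scnn1a, a sodium channel subunit, was at 164, 118 and 145.5 CPM on day 14 and 333, 258 and 50.5 CPM on day 7, while Aqp2, the water channel of the collecting duct, was at 0.373, 0.356 and 0.293 CPM on day 14 and 1.59, 4.00 and 1.61 CPM on day 7. Markers of the loop of Henle and distal tubule summed to 259, 281 and 256 CPM on day 14 and 313, 404 and 86.7 CPM on day 7. Fibroblast and pericyte markers summed to 206, 217 and 247 CPM on day 14 and 138, 132 and 219 CPM on day 7, and myeloid markers to 57.1, 52.6 and 58.2 CPM and 91.7, 70.7 and 82.4 CPM. Of 16 myeloid markers tested, 1 was higher and none lower, or 1 higher and 2 lower with day 7 A and B. Lymphocyte and red cell markers reached at most 0.283 CPM in sum. The part of these cells in the changes above was not tested.

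**Figure D4:**
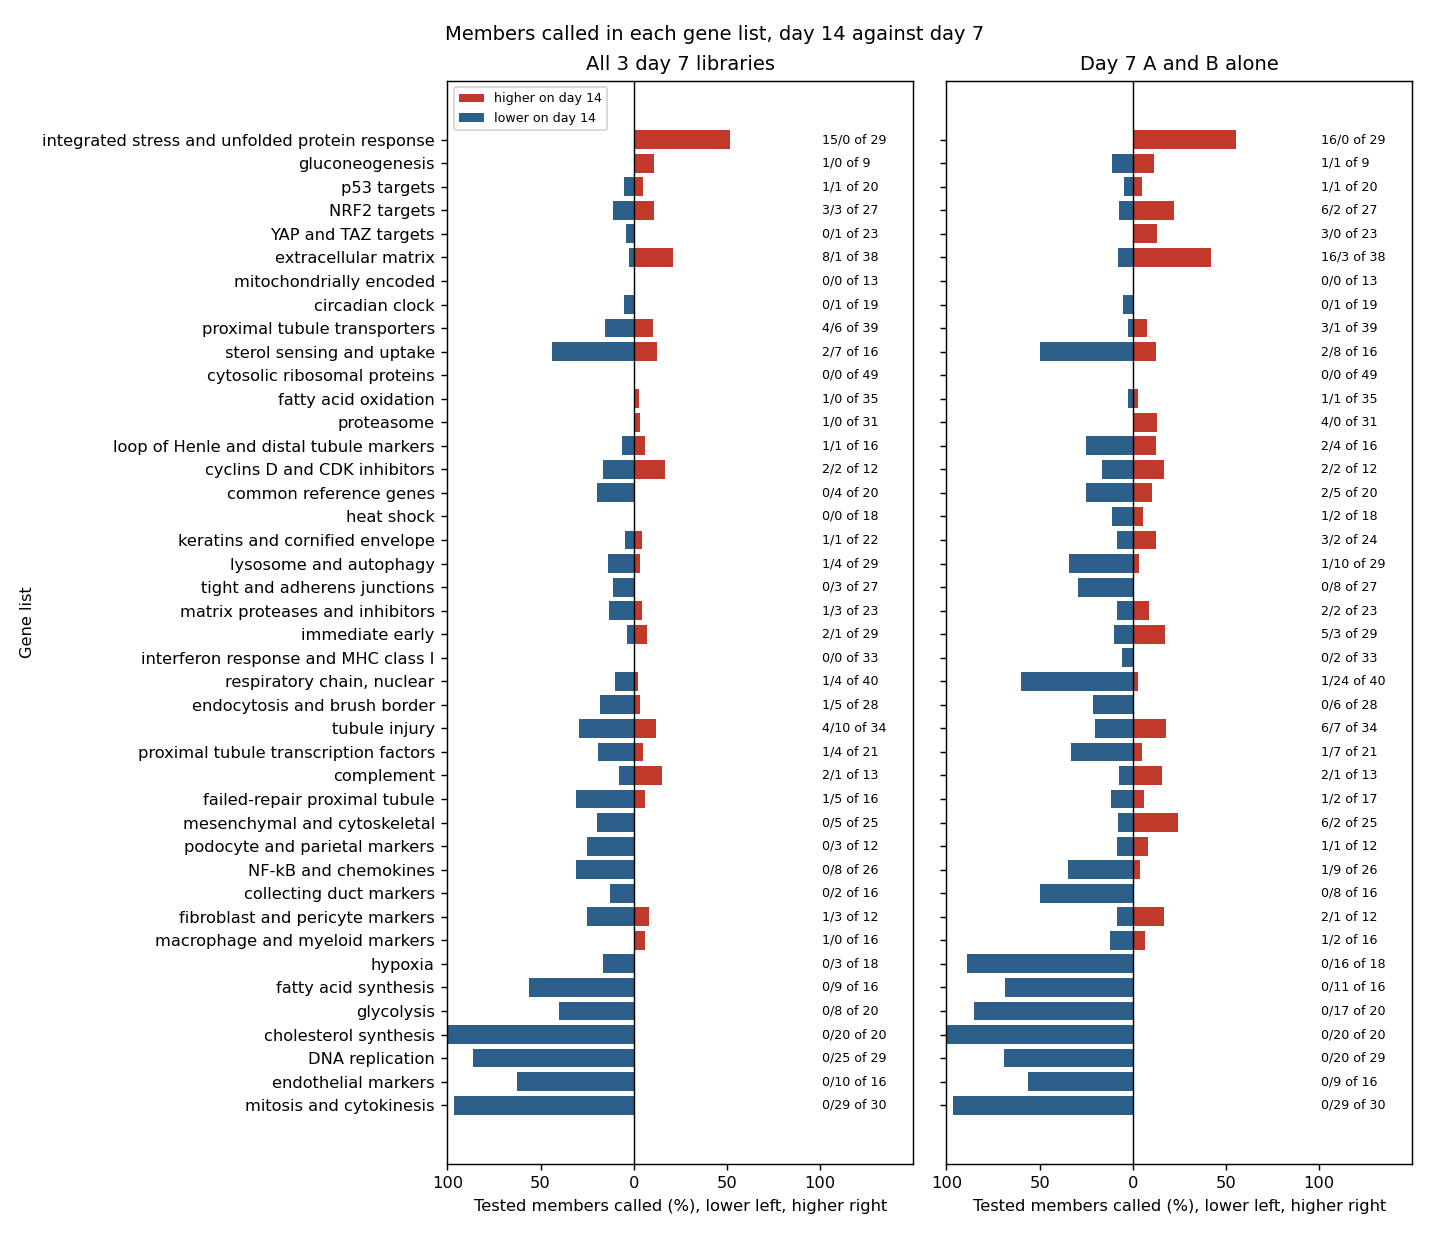
Share of the tested members of each gene list called higher (red, right) or lower (blue, left) on day 14 than on day 7 (%), with all 3 day 7 libraries (left panel) and with day 7 A and B alone (right panel). The numbers give members higher, lower and tested. Cholesterol synthesis, with 20 of 20, and mitosis, with 29 of 30, are lower in both panels, while hypoxia goes to 16 of 18 with day 7 A and B, against 3 of 18 with all libraries.

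Much of the transcriptome was bounded by an interval, not merely left uncalled. The intervals took their spread from all libraries of the fit, pooled over the 6 days. With day 7 C, which stood apart, they may therefore be too narrow for day 7. No interval was made with the spread of the libraries of days 7 and 14 alone. Among genes of at least 10 CPM, 6771 of 9690 (69.9%) had a 95% interval of the day 14 to day 7 fold (limma voom) that lay wholly within 1.5-fold in either direction, and with day 7 A and B it was 7452 of 9641 (77.3%). All 49 cytosolic ribosomal protein genes and all 31 proteasome genes were inside these limits in both fits. Both groups had moved in the step before, since 46 of the 49 and 30 of the 31 were lower on day 7 than on day 4. None of the 49 was called on day 14 against day 7 by edgeR with CPM scaling, and TPM called 2 higher. In the proteasome 1 gene was called, Psmb5, a catalytic subunit, with 197.5, 213.5 and 196.5 CPM on day 14 and 173, 178 and 161 CPM on day 7, a log2 fold change of 0.25 (adjusted p = 0.0238), and with day 7 A and B 4 were called higher, all within the limits. The call of Psmb5 was lost without any 1 day 14 library, and the 4 were 0 without day 7 A, day 7 B, day 14 A or day 14 B and 1 without day 14 C. Nuclear genes of the respiratory chain lay inside in 38 of 40 with all libraries and in 34 of 40 with day 7 A and B, although 24 of the 40 were called lower in that fit (12 without day 7 A or B). Mitochondrially encoded genes lay inside in 10 of 12 in both fits. Heat shock genes lay inside in 15 of 17 with all libraries (88.2%), above the share of all such genes. With day 7 A and B they did so in 13 of 17 (76.5%), near that share. Genes of fatty acid oxidation (18 of 24 in both) were near the share in both fits.

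Single genes of at least 100 CPM with the narrowest intervals around no change were Tsg101, Ddx54, Sidt2, Sgta and Prkar1a. Tsg101, of the endosomal sorting machinery, had 228, 240.1 and 235 CPM on day 14 and 238, 234 and 234.5 CPM on day 7, with an interval of -0.12 to 0.10 on the log2 scale. Prkar1a, a regulatory subunit of protein kinase A, had 579, 582 and 595 CPM on day 14 and 595, 576 and 577 CPM on day 7, with an interval of -0.11 to 0.13. Genes often used as references for normalization lay within 1.5-fold about as often as all genes, in 13 of 20 with all libraries and 15 of 20 with day 7 A and B. With all libraries 4 were called lower, namely Gapdh, Pgk1, Ppia and Actb, and with day 7 A and B 5 were lower and 2 higher. The 4 were 2 without any 1 day 14 library, and the 5 were 3 without day 7 A or day 14 C. Actb, cytoplasmic actin, had 1745, 1699 and 1718 CPM on day 14, against 2279, 2054 and 4359 CPM on day 7 (log2 fold change -0.75, or -0.34 with day 7 A and B). Rplp0, by contrast, had 514, 582 and 522 CPM on day 14 and 548.5, 554.5 and 605 CPM on day 7, and was not called.

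**Figure D5:**
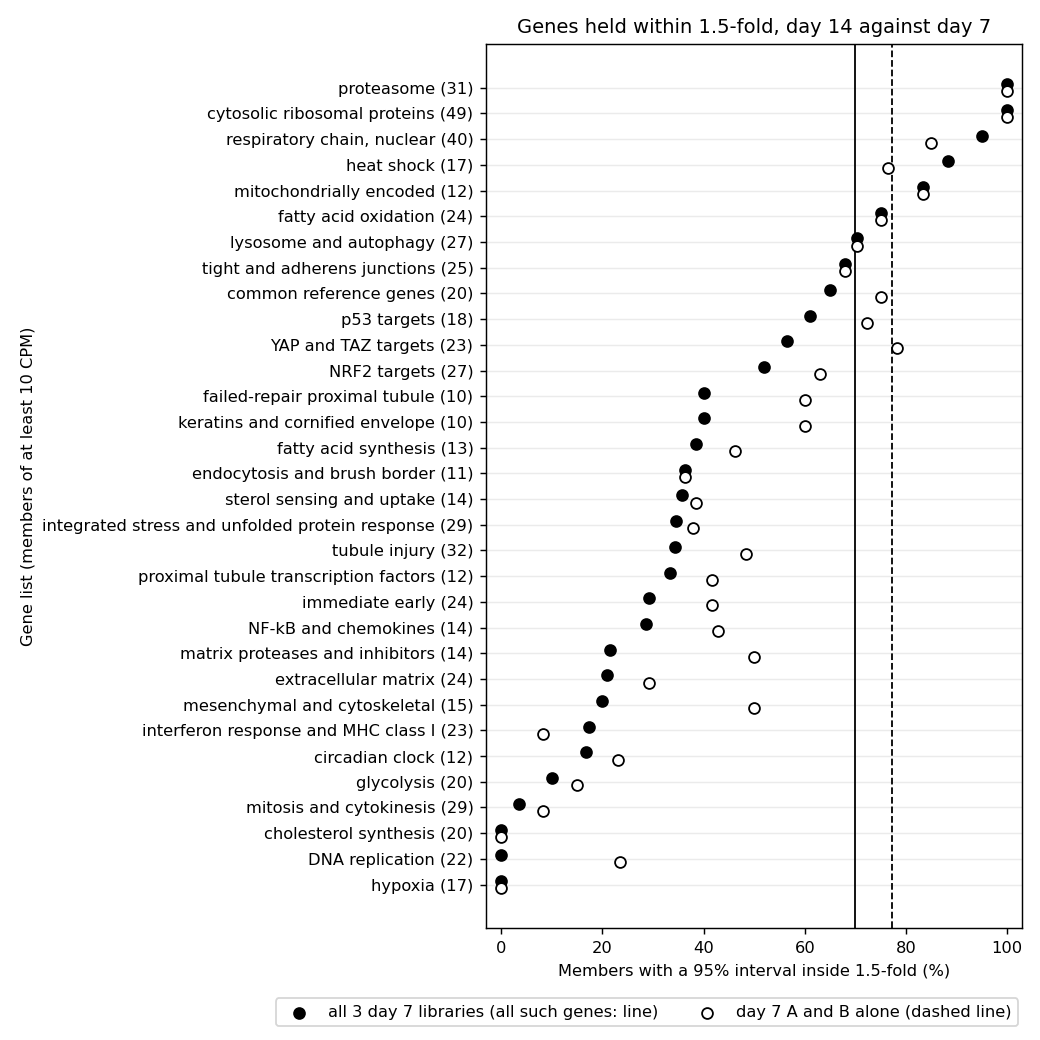
Share of list members of at least 10 CPM whose 95% interval of the day 14 to day 7 fold lies within 1.5-fold (%), with all 3 day 7 libraries (filled) and with day 7 A and B alone (open). The lines give the share of all such genes, 69.9% (solid) and 77.3% (dashed). Proteasome and ribosomal protein genes are at 100% in both fits, and cholesterol synthesis and hypoxia genes at 0%.

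Not being called is a weaker statement than being held within limits. Of 33 tested genes of the interferon response and MHC class I, none was called with all libraries and 2 were lower with day 7 A and B, yet 4 of the 23 with at least 10 CPM lay within 1.5-fold. The circadian clock genes, with 1 of 19 called, had 2 of 12 inside. The interferon count also depended on how the spread was estimated: without day 7 C, a fit on the libraries of days 14 and 7 alone called 15 of the 33 lower. These groups are therefore called neither changed nor stable here.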

How the data were processed

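RNA was measured by polyA RNA-seq, and the labels gave the day and the letter of each library. The authors deposited a table of estimated counts per gene, in whole numbers, and a table of TPM per gene, which holds no depth. Per the submitters' processing notes, RSEM 1.3.3, STAR 2.7.8a, cutadapt 2.3 and FastQC 0.11.8 were used with GRCm38. Annotation release and strandedness were not given in the sources used here. Overlapping, antisense and near-identical genes can therefore share reads. Of the tested IDs, 18734 were found in GENCODE vM21, the source of gene positions.

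CPM and log2 CPM (prior count 2) were computed on TMM-scaled library sizes, after 5 reporter transgenes had been left out of 55426 entries and filterByExpr had been applied. Days were compared by the quasi-likelihood F test of edgeR, with the 6 days as groups and 18 libraries (17 without day 7 C) in the fit, with Benjamini-Hochberg adjustment over all tested genes. The SE was obtained as the log2 fold change divided by the square root of F. Stability was read from 95% limma voom intervals. A list median includes each tested member. The 146 tested genes without a count on either day have a log2 fold change of 0. By an exact permutation test, 3 libraries against 3 cannot go below p = 0.1. No pair of libraries of 1 day differed as little as counting noise (the lowest chi-square was 6.59 times its degrees of freedom). Whether same-lettered libraries of the 2 days are paired could not be decided from their deviations, and no block was used.

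The members and the 43 gene lists (980 genes, of which 948 were tested) were chosen with earlier results of these data known. Named genes are fixed ones. To these come the 10 largest rises and falls in each fit, among called genes of at least 10 CPM whose libraries did not overlap. From each list come up to 3 members with the smallest adjusted p and 2 in the other direction, and last the 5 most stable genes. This gave 229 genes, not all printed, and some list members are counted but not reported singly here. The list members Acat2, Anxa1, Asns, Atf4, Bnip3, Bub3, Calr, Cdh1, Clu, Cth, Cyp51, Ddit3, Ebp, Erg, Hsp90b1, Hspa5, Lama5, Mthfd2, Pax8, Pdia4, Scap, Soat1 and Vegfa fall outside the rule and were chosen after their values were seen.

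On simulated counts for this comparison (18494 genes), the test called 24, 43, 50 and 50 of 50 genes changed 1.5, 2, 4 and 8-fold and 2 of 9493 unchanged ones. The simulated day 7 libraries shared 1 level per gene, and none stood apart as day 7 C did. These rates therefore may not hold for the measured libraries. The alternatives were the replicate letter as a block, other scalings, low counts left unfiltered, the 6 libraries alone, glmTreat against a fold of 1.5, DESeq2, limma on log2(TPM + 1) and log2(TPM + 0.1), and each library left out. Versions were matplotlib 3.10.9, Python 3.11.15, DESeq2 1.42.0, limma 3.58.1, edgeR 4.0.16 and R 4.3.3.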

Additional observations from a re-analysis of the deposited data

How the results depend on the processing

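Leaving out 1 library at a time gave 444 to 1111 genes higher and 763 to 1784 lower, where the count with all libraries was 950 and 1399. Leaving out a further library from the fit without day 7 C gave 394 to 909 higher and 779 to 1410 lower, where that fit had 1111 and 1784. Of the 229 named genes, 4 changed sign with a call in the fit on either side, and others, called in neither fit, also changed sign. For the 4, none called with all libraries, leaving out single libraries, the log2 fold change ran from -0.55 to 0.29 for Actn1, -0.49 to 0.50 for Epha2, -0.53 to 1.07 for Mmp15 and -1.07 to 1.12 for Ptgs2, in each case positive and called without day 7 C. Scaling by library sizes alone gave 1554 higher (1976 without day 7 C), and no filter on low counts 610 higher. A spread estimated from the 6 libraries alone gave 127 higher and 92 lower, and 1936 higher without day 7 C. A test against a fold of 1.5 gave 135 higher and 289 lower, or 170 and 293 without day 7 C. On log2(TPM + 1) the counts were 1697 higher and 621 lower (1906 and 941 without day 7 C), without a filter 1745 and 505 (1892 and 821), and on log2(TPM + 0.1) 664 and 858 were lower in the 2 fits. The cause of these shifts was not tested. DESeq2 called 1240 higher and 1879 lower.

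Deviations of same-lettered libraries from their day means had r = -0.000127, 0.0668 and 0.0521 for A, B and C. Between different letters r ran from -0.0756 to 0.00888. Day 7 C, which stood apart, weighs on the day 7 mean, so these values cannot decide whether the letters pair libraries. With the replicate block the counts were 963 higher and 1291 lower (1134 and 1740 without day 7 C). With the replicate block and the 6 libraries alone, edgeR called 0 higher and 0 lower, with 2736 genes at an unadjusted p under 0.05, and 1765 higher without day 7 C. The 20 cholesterol synthesis genes were all lower in each fit but those on the 6 libraries alone (18, and 0 with the block) and the test against a fold of 1.5 (15, or 18 without day 7 C). Depth, at 23799559 or more counts a library, limits genes of a few CPM most.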
